A study of Mus musculus with 6 samples.

Results

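The dystrophin glycoprotein complex was followed in C2C12 cells, a mouse myoblast line of wild-type genotype that fuses into multinucleated myotubes when the serum is changed. The complex was represented by 8 genes chosen by symbol, with earlier results of these data known. They were Dmd, Utrn, Dag1, Sgca, Sgcb, Sgcd, Sspn and Dtna, and all 8 were among the 43074 gene symbols of the deposited count table. RNA sequencing covered 3 groups of 2 libraries: untreated cells at day 0, taken from growth medium with fetal bovine serum, and cells held for 4 days in horse serum medium, which drives differentiation, together with either DMSO or 1 mM 4-phenylbutyric acid (4-PBA). 4-PBA, an aromatic fatty acid, inhibits histone deacetylases and is used to ease protein folding stress. Day 0 and day 4 cells differed in time, serum and vehicle together, and these cannot be told apart here. The labels do not say whether the 2 libraries of a group came from separate cultures, so the p-values measure the spread between these libraries, which may be technical.

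The complex links the actin cytoskeleton of a muscle fibre to the basement membrane. Dystrophin binds actin at its amino end and the membrane protein dystroglycan near its carboxyl end, dystroglycan binds laminin outside the cell through its sugar chains, and the sarcoglycans and sarcospan hold this axis together within the membrane. Utrophin, the autosomal relative of dystrophin, takes the place of dystrophin in immature muscle and stays at the neuromuscular junction in the adult fibre, while dystrobrevin and the syntrophins dock signalling proteins on the inside. Loss of dystrophin causes Duchenne muscular dystrophy and loss of a sarcoglycan causes limb-girdle muscular dystrophy.

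Promoter windows of 4 gene starts are shown for the members with the largest rises at day 4 (Sgca and Dmd) and for the most abundant member per length (Dag1), to set their base content and motifs side by side. RefSeq sequences (GRCm38.p6) were found for 7 of the 8 members, in 10 windows; Dtna was not among them. Each window holds the 250 bases before the annotated start, 5′ to 3′ on the gene's strand. Dmd has a start at the first exon of the full-length transcript (chrX:82948620-82948869, plus strand) and another far downstream within the gene (chrX:85048045-85048294, plus strand). The Sgca window lies at chr11:94976328-94976577 and the Dag1 window at chr9:108263959-108264208, both on the minus strand. Capitals mark matches to 4 motifs searched on both strands: the E-box CANNTG bound by myogenic factors such as MyoD, the CArG box of serum response factor, the MEF2 site, and the GC box GGGCGG.
Dmd full-length start: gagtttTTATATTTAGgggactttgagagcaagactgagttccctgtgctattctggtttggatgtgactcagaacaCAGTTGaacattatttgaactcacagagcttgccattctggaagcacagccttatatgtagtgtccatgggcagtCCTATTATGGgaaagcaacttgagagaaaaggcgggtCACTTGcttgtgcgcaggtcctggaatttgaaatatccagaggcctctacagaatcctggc
Dmd downstream start: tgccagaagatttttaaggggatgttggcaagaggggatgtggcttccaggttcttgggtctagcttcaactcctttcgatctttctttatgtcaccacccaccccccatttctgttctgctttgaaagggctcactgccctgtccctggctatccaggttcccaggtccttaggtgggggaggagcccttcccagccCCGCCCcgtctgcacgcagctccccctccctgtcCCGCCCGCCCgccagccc
Sgca start: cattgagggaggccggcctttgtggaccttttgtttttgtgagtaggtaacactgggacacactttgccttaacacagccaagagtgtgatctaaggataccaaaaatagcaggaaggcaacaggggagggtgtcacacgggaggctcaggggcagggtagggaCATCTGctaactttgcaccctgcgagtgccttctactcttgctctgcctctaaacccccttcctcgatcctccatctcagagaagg
Dag1 start: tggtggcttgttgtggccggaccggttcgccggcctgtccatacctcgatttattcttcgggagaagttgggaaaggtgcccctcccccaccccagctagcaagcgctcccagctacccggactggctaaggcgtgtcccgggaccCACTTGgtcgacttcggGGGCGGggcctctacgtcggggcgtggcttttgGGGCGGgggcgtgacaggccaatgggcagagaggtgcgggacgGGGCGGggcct

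The full-length Dmd window held 2 E-boxes, a CArG box at positions -98 to -89 from the start site and a MEF2 site at -244 to -235, and no GC box. Over 32851 RefSeq windows of the same length, 66.2% held an E-box, 1.47% a CArG box, 2.92% a MEF2 site and 32.7% a GC box. None of the 9 other member windows held a CArG box or a MEF2 site. These windows are not all separate or equally sure. The 2 Dag1 windows overlap, and bases checked after the Sgcd start matched no GENCODE M21 transcript of Sgcd. At 7, in part overlapping, the Utrn window had the most E-boxes of the member windows. The downstream Dmd start had 3 GC boxes, which run into each other in part, and no E-box. The Sgca window had 1 E-box, at -86 to -81, and no GC box, and the Dag1 window shown had 1 E-box and 3 GC boxes. G and C made up 45.2% of the full-length Dmd window, 60.0% of the downstream Dmd window, 52.8% of the Sgca window and 67.6% of the Dag1 window, against a median of 52.4% over all windows. These matches describe letters only. The counts are per gene, so transcripts from different Dmd starts, the 2 shown or any others, were not separated.

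Libraries held 47908926 to 74697397 counts. Levels are given as CPM, counts relative to library size after scaling, and changes were tested with the quasi-likelihood F test of edgeR with Benjamini-Hochberg adjustment over 17433 tested genes, an adjusted p-value under 0.05 counting as a call. The summed level of 8 myotube markers (Myog, Mymk, Mymx, Myh3, Acta1, Ckm, Tnnt3 and Actn2) was 86.8 to 91.8 CPM at day 0, then 4926 to 5255 CPM under DMSO and 4849 to 4953 CPM under 4-PBA. The 6 myoblast markers (Myod1, Myf5, Des, Cdh15, Itga7 and Pax7) summed to 2164 to 2189, 5309 to 5324 and 5013 to 5055 CPM. With DMSO 5 of these 6 were called higher than at day 0 and 1, Myf5, lower, so as a list they did not mark the day 0 cells. Markers of endothelial, leukocyte, Schwann, adipocyte and epithelial cells reached a summed level of at most 5.70 CPM in any library, and Sox10 and Cfd had no counts.

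All 8 members rose between day 0 and day 4 with DMSO, and in each of them both day 4 libraries lay above both day 0 libraries. Of all tested genes, 66.3% were called in this comparison, 33.8% higher and 32.6% lower, and 81.9% had libraries that did not overlap between the groups. The median log2 fold change was 1.02 over the members and 0.023 over all tested genes. The rises ranged from 1.58-fold for Dtna to 8.51-fold for Sgca, and adjusted p-values from 2.81e-29 (Dag1) to 8.32e-12 (Dmd). The myotube markers rose in the same libraries, and their part in the rise of the members was not tested. In bulk RNA a larger share of cells that carry a transcript and more of it per cell cannot be told apart.

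Dmd, the dystrophin gene, had 30 and 55 counts in the day 0 libraries, 227 and 277 in the DMSO libraries and 245 and 177 in the 4-PBA libraries. These counts correspond to 0.617 and 0.783 CPM at day 0, then 3.60 and 3.73 CPM under DMSO, and 3.95 and 2.85 CPM under 4-PBA. Both day 4 groups stood clear of day 0, while the 4-PBA libraries lay on either side of the DMSO libraries. The rise with DMSO was 5.14-fold (log2 fold change 2.36, SE 0.218) and with 4-PBA 4.77-fold (2.25, SE 0.220). Dmd had the fewest counts of the members and the widest intervals.

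Utrn, the utrophin gene, stood at 194.0 and 194.0 CPM at day 0 and at 359 and 356 CPM with DMSO, a log2 fold change of 0.88 (SE 0.0301). With 4-PBA it stood at 321 and 323 CPM, above day 0 and below both DMSO libraries. Reads of Utrn outnumbered those of Dmd in every library. There were 314 and 248 Utrn reads for each Dmd read at day 0, then 99.7 and 95.2 under DMSO, and 81.4 and 113 under 4-PBA. Day 4 libraries thus held fewer Utrn reads per Dmd read than day 0 libraries, without overlap. The log2 ratio of Dmd to Utrn was -8.12 ± 0.243 (SD, n = 2) at day 0, -6.61 ± 0.0465 with DMSO and -6.59 ± 0.338 with 4-PBA. It was 1.52 higher with DMSO than at day 0 and 1.54 higher with 4-PBA than at day 0, each with a two-sided exact permutation p of 0.333, the smallest that 2 libraries against 2 allow (0.500 after adjustment over 3 comparisons). Between 4-PBA and DMSO the difference was 0.020 (exact permutation p of 1), smaller than the spread between the 4-PBA libraries. Its sign rested on single libraries, at -0.22 without 4-PBA replicate 1 and -0.013 without DMSO replicate 1.

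**Figure D1:**
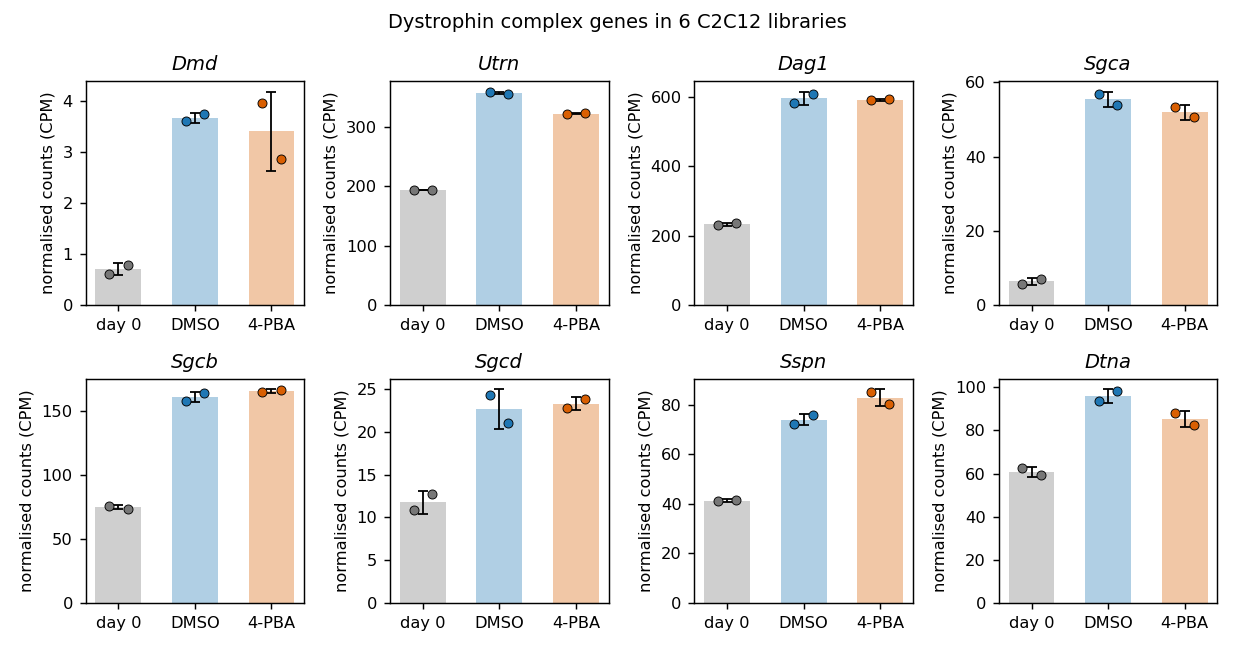
Normalised counts (CPM, linear axis from 0) of the 8 member genes in each library. Points are the 2 libraries of a group, bars their mean and error bars their SD (n = 2). Every day 4 point lies above every day 0 point of the same gene, and the 4-PBA points lie below the DMSO points for Utrn and Dtna and above them for Sspn.

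Dag1 encodes dystroglycan, the laminin receptor at the centre of the complex. Its level was 230.3 and 236 CPM at day 0, then 582 and 610 CPM under DMSO and 590.5 and 594 CPM under 4-PBA. The DMSO libraries enclosed the 4-PBA libraries. The log2 fold change from day 0 was 1.35 (SE 0.0304) with DMSO and 1.35 (SE 0.0304) with 4-PBA.

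The sarcoglycans form a subcomplex beside dystroglycan, and their genes rose by different amounts. Sgca, for the alpha subunit, had 5.80 and 7.07 CPM at day 0, then 56.9 and 54.0 CPM under DMSO and 53.4 and 50.5 CPM under 4-PBA. Its log2 fold change with DMSO was 3.09 (SE 0.0706), the largest of the members. Sgcb, for the beta subunit, had 76.0 and 73.9 CPM at day 0, then 158 and 164 CPM under DMSO and 165 and 167 CPM under 4-PBA, a log2 fold change of 1.11 (SE 0.0358) with DMSO. Sgcd, for the delta subunit, had 10.8 and 12.7 CPM at day 0, then 24.3 and 21.0 CPM under DMSO and 22.8 and 23.9 CPM under 4-PBA, a log2 fold change of 0.93 (SE 0.0825) with DMSO. The 95% interval of the Sgca change (2.94 to 3.23) lay above those of Sgcb (1.03 to 1.18) and Sgcd (0.77 to 1.10), which overlapped each other. The difference between genes was not tested.

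Sspn encodes sarcospan, a membrane protein with several transmembrane segments that associates with the sarcoglycans. It had 41.0 and 41.6 CPM at day 0, then 72.3 and 75.6 CPM under DMSO, and 85.1 and 80.3 CPM under 4-PBA. The 3 groups did not overlap, with 4-PBA highest. The log2 fold change from day 0 was 0.84 (SE 0.0457) with DMSO and 1.001 (SE 0.0458) with 4-PBA. Dtna encodes alpha-dystrobrevin, a cytoplasmic relative of dystrophin. It had 62.4 and 59.1 CPM at day 0, then 93.7 and 98.1 CPM under DMSO, and 87.9 and 82.5 CPM under 4-PBA. Here too the groups did not overlap, with DMSO highest. The log2 fold change from day 0 was 0.66 (SE 0.0432) with DMSO and 0.49 (SE 0.0435) with 4-PBA. In GENCODE M21, exons of Sspn overlap Sspnos and exons of Dtna overlap Gm47898, both on the opposite strand. Whether counting used strand is not given in the sources used here, and the values of Sspn and Dtna are uncertain to that extent.

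Levels of different genes were compared per kilobase of the principal GENCODE M21 transcript. With DMSO the order was Dag1 (105 ± 3.40 CPM per kilobase, SD, n = 2), Dtna (60.1 ± 1.95), Sgcb (42.6 ± 1.12), Sgca (32.2 ± 1.18), Utrn (28.8 ± 0.169), Sspn (16.7 ± 0.524), Sgcd (14.0 ± 1.43) and Dmd (0.246 ± 0.00648). Neighbours in this order did not overlap between libraries in any group. At day 0 Sgca was at rank 7, at 3.73 ± 0.518, below Utrn, Sspn and Sgcd, and at day 4 it was at rank 4 in both groups. Dag1 was first and Dmd last in each group. The place of Dtna rested on the length used: its principal transcript has 1596 bases and its exons together 16930 bases, and per kilobase of all exons it was at rank 6 in place of rank 2. The same change of length put Sgcd at rank 7 in each group and Sgca at rank 5 at day 0 and rank 3 at day 4, with Dag1 first and Dmd last as before.

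Expressed as ratios of levels per kilobase, Sgca was 0.189 ± 0.0300 of Sgcb at day 0 (SD, n = 2), 0.756 ± 0.0476 with DMSO and 0.689 ± 0.0327 with 4-PBA. Sgca was 0.512 ± 0.0143 of Sgcd at day 0 and 2.30 ± 0.151 of it with DMSO. The alpha subunit was thus below the delta subunit before differentiation and above it afterwards on the length of the principal transcripts. Per kilobase of all exons Sgca was above Sgcd at day 0 too, at 3.71 against 1.43 CPM per kilobase. Utrn was 338 ± 56.7 times Dmd at day 0, 117 ± 3.78 times with DMSO and 117 ± 27.2 times with 4-PBA. These ratios rest on a Dmd length of 14910 bases, while transcripts from different starts of Dmd were not separated. Per kilobase of all exons, Utrn and Dmd stood at 11.3 and 0.0294 CPM per kilobase at day 0. The same levels were 20.9 and 0.154 with DMSO, and 18.8 and 0.143 with 4-PBA. Utrn was 0.381 ± 0.00619 of Dag1 at day 0, 0.274 ± 0.0105 with DMSO and 0.249 ± 3.93e-05 with 4-PBA.

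**Figure D2:**
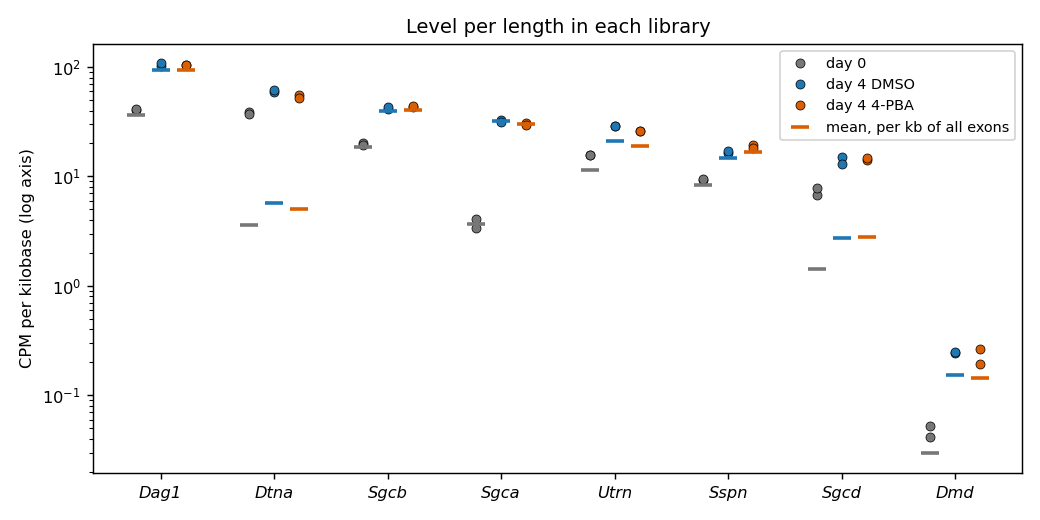
CPM per kilobase (log axis) of the 8 members, ordered by their level with DMSO. Points are single libraries, per kilobase of the principal transcript, and dashes are group means per kilobase of all exons. Dag1 is highest and Dmd lowest in each group on either length, and Dtna drops when all exons are counted.

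4-PBA changed 3 of the 8 members against DMSO at day 4. Utrn and Dtna fell and Sspn rose, against 4.90% of all tested genes called, 2.13% higher and 2.78% lower. Utrn was 1.11-fold lower with 4-PBA, at 322 ± 1.38 against 357 ± 2.09 CPM (SD, n = 2; log2 fold change -0.15, SE 0.0296, adjusted p 0.00144). Dtna was 1.13-fold lower, at 85.2 ± 3.78 against 95.9 ± 3.11 CPM (-0.17, SE 0.0423, adjusted p 0.0112). Sspn was 1.12-fold higher, at 82.7 ± 3.39 against 74.0 ± 2.32 CPM (0.16, SE 0.0437, adjusted p 0.0234). The groups did not overlap for 5 members, the called 3 together with Sgca and Sgcb, against 45.5% of all tested genes.

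The other 5 members were not called, and their intervals bound the size of any difference. For Dag1 the log2 fold change was -0.0088 with a 95% interval from -0.069 to 0.051, and for Sgcb 0.040 (-0.030 to 0.11). Sgca stood at -0.092 (-0.21 to 0.022) and Sgcd at 0.044 (-0.11 to 0.20). For Dmd, the value was -0.11 with an interval from -0.47 to 0.25, which includes a change of the size seen in Utrn. Its 4-PBA libraries had 245 and 177 counts, and the part of depth in the width of this interval was not tested. The median log2 fold change over the members was -0.051, against 0.0021 over all tested genes. In the same comparison 3 of the 8 myotube markers (Acta1, Mymk and Mymx) were called lower with 4-PBA and none higher, and the ranges of their summed level overlapped. Of the 6 myoblast markers, Des and Itga7 were called lower and Cdh15 higher, and their summed level did not overlap between the groups (5013 to 5055 CPM with 4-PBA, 5309 to 5324 CPM with DMSO). The part of either list in the changes of Utrn, Dtna and Sspn was not tested.

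These 3 calls held together only with both 4-PBA and both DMSO libraries. Without 4-PBA replicate 1 only Dtna was called, while the calls over all genes dropped to 341, and without 4-PBA replicate 2 no member was called and 295 genes were called in all, both against 855 with every library. The log2 fold change of Utrn was -0.14 without 4-PBA replicate 1 (adjusted p 0.0677) and -0.15 without 4-PBA replicate 2 (adjusted p 0.0523), and over 13 alternatives it lay between -0.15 and -0.14 with adjusted p-values from 2.58e-04 to 0.0677. Dtna was not called without DMSO replicate 2 (-0.14, adjusted p 0.0682) or without 4-PBA replicate 2 (-0.13, adjusted p 0.298), in a range of adjusted p-values down to 7.01e-04. Sspn was not called without DMSO replicate 1 (0.13, adjusted p 0.106), 4-PBA replicate 1 (0.12, adjusted p 0.374) or 4-PBA replicate 2 (0.20, adjusted p 0.0523), in a range down to 0.00565. Without 4-PBA replicate 2, 3 members had an unadjusted p-value under 0.05 in edgeR, DESeq2 called 0 members and limma-voom called 2 (Sspn and Utrn). In each of these fits the lone library of a group was assumed to vary like the others.

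**Figure D3:**
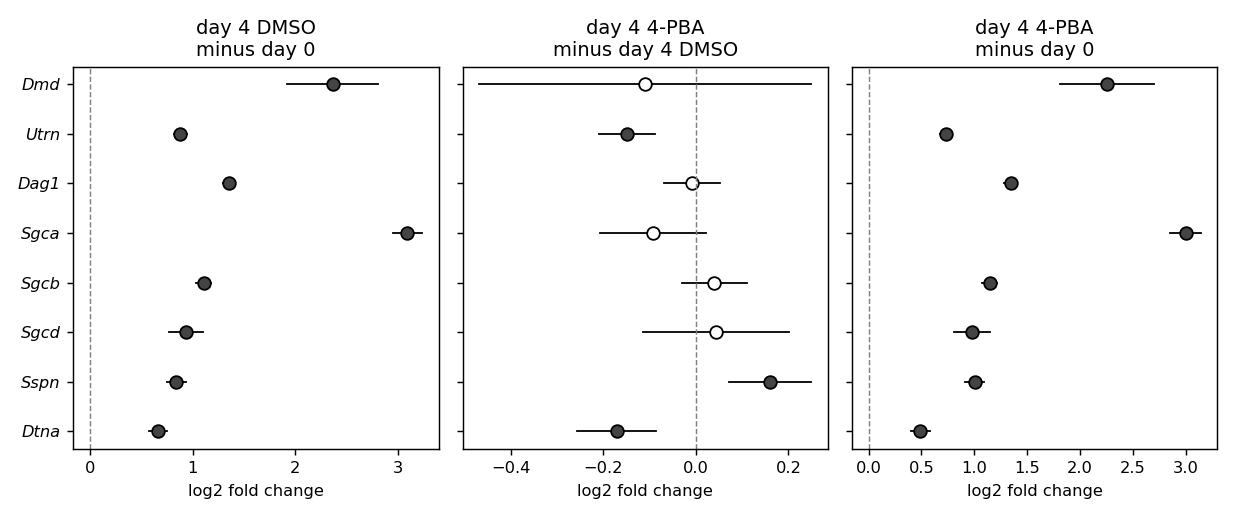
Log2 fold changes of the 8 members in the 3 comparisons, each panel with its own scale. Points are edgeR estimates, filled where the adjusted p-value was under 0.05, and lines are 95% intervals. All points are filled and right of 0 against day 0, and in the comparison of 4-PBA with DMSO Utrn, Dtna and Sspn are filled.

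Against day 0, all 8 members rose with 4-PBA as well, where 65.6% of all tested genes were called, 33.2% higher and 32.4% lower. Both 4-PBA libraries lay above both day 0 libraries for each member, and the libraries did not overlap for 81.8% of all tested genes. The log2 fold changes ran from 0.49 for Dtna to 2.996 for Sgca, with a median of 1.07 over the members and 0.018 over all tested genes. This comparison shares its day 0 libraries with that of DMSO, so the values are given side by side only. Utrn had 0.73 with 4-PBA and 0.88 with DMSO, Dtna 0.49 and 0.66, and Sspn 1.001 and 0.84. Sgcb had 1.15 and 1.11, Sgcd 0.98 and 0.93, and Dmd 2.25 and 2.36.

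Other genes of the complex, outside the 8 members, moved in both directions during differentiation with DMSO. Of 11 such genes (among them dystrobrevin beta, the syntrophins, Nos1 and Cav3) 10 were tested, 6 rose and 2 fell, with a median log2 fold change of 0.43. Of all tested genes 66.3% were called in this comparison, 33.8% higher and 32.6% lower. Cav3, the muscle caveolin, stood at 0.247 and 0.199 CPM at day 0 and at 11.6 and 10.9 CPM with DMSO, a log2 fold change of 5.67 (SE 0.184). Sntb1, for a beta syntrophin, rose from 36.2 and 36.8 CPM to 89.9 and 93.2 CPM (1.33, SE 0.0438). The 2 that fell were Dtnb, a paralog of Dtna (-0.86, SE 0.0949), and the syntrophin gene Sntb2 (-0.29, SE 0.0497). Between 4-PBA and DMSO, where edgeR called 4.90% of all tested genes, it called none of the 10. Of these 10, 3 had an unadjusted p-value under 0.05 in edgeR. The DESeq2 Wald test called 0 and limma-voom 1.

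A further list held the enzymes that build the laminin-binding sugar chain of dystroglycan. Of 18 genes, all tested, 9 rose and 2 fell with DMSO, where 66.3% of all tested genes were called, with a median log2 fold change of 0.16. Pomt1, a protein O-mannosyltransferase that starts the chain, fell from 36.4 and 34.2 CPM to 18.8 and 19.6 CPM (log2 fold change -0.87, SE 0.0641), with exons that overlap Uck1 on the opposite strand. Dpm2, of the dolichol phosphate mannose synthase, also fell (-0.41, SE 0.0605). Between 4-PBA and DMSO their median was 0.0092, and edgeR, DESeq2 and limma-voom each called 0 of the 18. The share called by edgeR over all tested genes was 4.90%. In edgeR 1 of them had an unadjusted p-value under 0.05.

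On the outer side, 12 of 13 genes for matrix ligands of dystroglycan were tested, of which 10 rose and 1 (Lamb1, -0.096, SE 0.0309) fell with DMSO. Their median log2 fold change was 0.97. The share called over all tested genes was 66.3%, with 33.8% higher and 32.6% lower. Lama2, the laminin alpha chain of muscle basement membrane, rose from 73.7 and 76.0 CPM to 224 and 235 CPM (1.62, SE 0.0358), with exons that overlap Gm48084 on the opposite strand. Hspg2, for perlecan, rose from 980.1 and 988 CPM to 2458 and 2387 CPM (1.30, SE 0.0265), and Bgn, for biglycan, from 659 and 677 CPM to 1600.2 and 1526 CPM (1.23, SE 0.0287). Between 4-PBA and DMSO edgeR and DESeq2 each called 0 of the 12, of which 5 had an unadjusted p-value under 0.05 in edgeR. Among the 12 limma-voom called 3 (Hspg2, Lama2 and Lama1). Over all tested genes edgeR called 4.90%.

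On the inner side, 11 of 12 genes for cytoskeletal proteins that bind or neighbour the complex were tested. With DMSO 6 rose and 3 fell, against 66.3% of all tested genes called, 33.8% higher and 32.6% lower. Those that fell were the cytoplasmic actins Actb (-0.43, SE 0.0421) and Actg1 (-0.46, SE 0.0333) and the keratin Krt19 (-2.76, SE 0.104). Des, for the intermediate filament desmin, rose from 877 and 885 CPM to 2226 and 2198 CPM (1.33, SE 0.0263), Macf1, for a large actin and microtubule crosslinker, by 1.24 (SE 0.0268) and Flnc, for muscle filamin, by 1.04 (SE 0.0272). With 4-PBA, Des stood at 2044 and 2061 CPM (log2 fold change against DMSO -0.11, SE 0.0258, adjusted p 0.00881) and Macf1 at 1469 and 1474 CPM against 1586 and 1594 CPM (-0.11, SE 0.0263, adjusted p 0.00757), both lower in both libraries. Exons of Des overlap Gm15179 on the opposite strand, and those of Actg1 overlap Gm23419 and Mir6935 on the same strand. Des and Macf1 were the only 2 of the 11 called with 4-PBA against DMSO, where 4.90% of all tested genes were called. The lists were described by their counts and were not tested as sets.

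**Figure D4:**
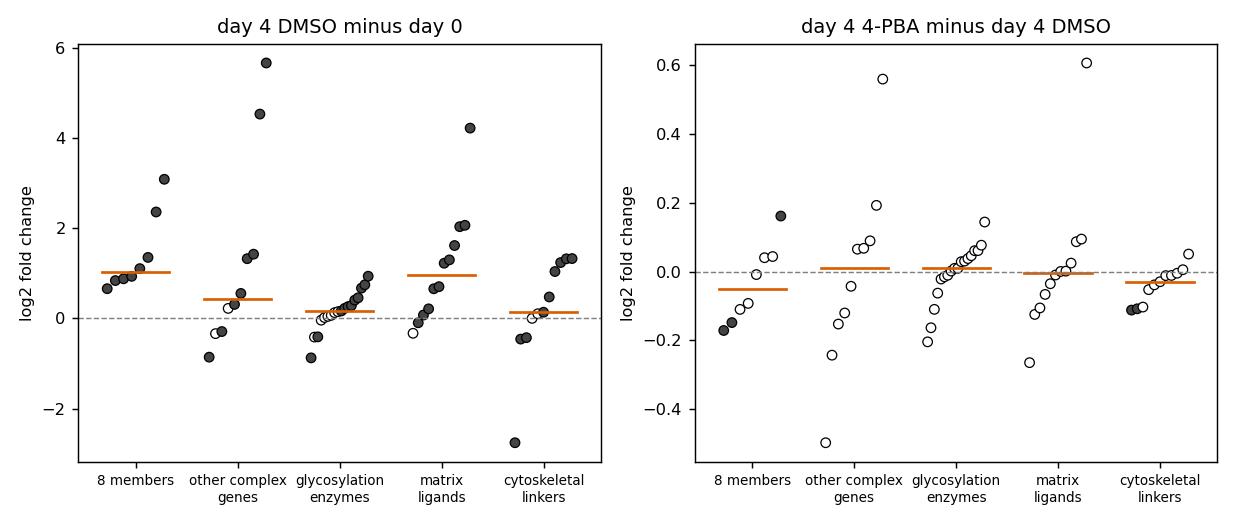
Log2 fold changes of the 8 members and of the tested genes of 4 lists around the complex, with DMSO against day 0 (left) and 4-PBA against DMSO (right, finer scale). Each point is a gene, filled where the adjusted p-value was under 0.05, and orange lines are medians. Against DMSO the filled points are Utrn, Dtna and Sspn among the members and Des and Macf1 among the linkers.

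Profiles over the 6 libraries were compared by the Euclidean distance between centred log2 CPM values, over tested genes with a mean of at least 5 CPM. Nearest to Dmd were Scml4 (distance 0.219), Itga4 (0.317) and Adamts12 (0.319), among 10681 genes. Nearest to Utrn were 2900026A02Rik (0.0532), Ehbp1l1 (0.0568) and Wipi1 (0.0646), among 10680 genes. Nearest to Dag1 were Myo18a (0.0496), the collagen gene Col3a1 (0.0540) and App (0.0622). These distances describe 6 libraries in 3 groups, and say nothing of shared function or control.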

How the data were processed

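RNA was measured in 6 libraries made with a directional kit after DNase treatment, per the labels' protocols. The authors deposited raw counts per gene symbol. The genome build GRCm39 is named in the submitters' processing notes; aligner, counting tool, annotation and strand setting are not given in the sources used here. The members and lists were chosen with earlier results of these data known. edgeR 4.0.16 (R 4.3.3) was run with filterByExpr, TMM scaling, a mean per group over all 6 libraries and robust glmQLFit, leaving 3 residual degrees of freedom (median prior degrees of freedom 30.4; common biological coefficient of variation 3.74%). The SE is the log2 fold change divided by the square root of F, and intervals are 95%. Replicates differed by more than counting noise (chi-square per degree of freedom 3.77, 6.64 and 5.34), pooled over genes within each group. The parts of library spread and depth in the values of single genes were not tested. CPM use effective library sizes. Log2 CPM profiles had a prior count of 2. Named genes are the members, per list the 3 smallest adjusted p-values with DMSO, those called with 4-PBA and the 3 nearest profiles; genes called lower, those called by limma-voom and markers called with 4-PBA were named after their values were seen. Some genes that this rule selects are not reported here. Alternatives were library size without TMM, size factors of DESeq2, the DESeq2 1.42.0 Wald test, no filter beyond 1 count, limma-voom (limma 3.58.1), only the 4 libraries compared, a replicate block, each library left out, and, chosen after seeing the data, the length of all exons. GENCODE M21 gave lengths and overlaps. The edgeR procedure was tested on simulated data for 4-PBA against DMSO only. Changes as widespread as those against day 0 were not simulated. Figures used Python 3.11.15 and matplotlib 3.10.9.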

Additional observations from a re-analysis of the deposited data

How the results depend on the processing

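The 8 calls with DMSO and the 8 with 4-PBA against day 0 held under all 13 alternatives, in the same direction. Between 4-PBA and DMSO, 3 members were called under every alternative that used all the libraries of these 2 groups, and 0 to 3 when a library was left out. The log2 difference of the Dmd to Utrn ratio between 4-PBA and DMSO lay between -0.22 and 0.26 when a library was left out; the cause was not tested. Values not called that changed sign were Dag1 at 0.000605 with library size only, and, over the fits that left out a library, Dag1 (-0.042 to 0.026), Sgcd (-0.058 to 0.15) and Dmd (-0.36 to 0.11), the causes of which were not tested. Deviations of same-numbered libraries from their group means were nearly uncorrelated over all tested genes (correlations between -0.028 and -0.0031). These values cannot tell whether such libraries were prepared together. A replicate block gave 3 called members for 4-PBA against DMSO and 8 for either comparison with day 0. Over all genes it gave 768 calls between 4-PBA and DMSO. For the Dmd to Utrn ratio a block is no check. The mean of same-numbered differences equals the difference of group means by arithmetic. Dmd had low counts, and its 4-PBA libraries differed from each other (245 and 177 counts). The part of each in the width of its intervals was not tested.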
